A study of Mus musculus with 2 samples.

Results

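The genes described here were 7 checkpoint ligands and costimulatory molecules, the surface and secreted proteins through which a cell tells a T cell to go on or to stop: Cd274 (PD-L1), Pdcd1lg2 (PD-L2), Cd80, Cd86, Cd40, Lgals9 (galectin-9) and Vsir (VISTA). They were found by symbol among the 32285 genes of 2 single-cell RNA sequencing libraries of the mouse temporomandibular joint (TMJ), the jaw joint, and all 7 had reads in both libraries. One library was made from joints injected with PBS and the other from joints injected with complete Freund's adjuvant (CFA), a suspension of killed mycobacteria in oil that sets off a lasting inflammation. Both groups were wild-type C57BL/6 mice (C57BL/6J in the methods), 8 to 10 weeks old by the labels. By the methods they were females injected at 8 weeks, in the joints on both sides, with 10 µL (for CFA, 5 mg/mL), and the tissue was taken 3 weeks later, which is past the labelled age. The tissue was digested, CD45+ cells, which include nearly all leukocytes, were reduced with magnetic beads, and the remaining cells were sequenced by the droplet method. The immune cells described below are therefore those that the beads left behind, and their share of the joint cannot be read from these data. The methods give n = 3 for the collected tissue, without saying whether per group or whether animals were pooled, and the labels name no separate animals within a library, so each condition is 1 sample. No test between conditions was possible, and every interval below is a 95% interval that covers counting error only, not the spread between animals or preparations.

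T cells need a second signal beside antigen. Cd80 and Cd86 on antigen-presenting cells give it through CD28 and withdraw it through CTLA-4, and Cd40 receives the CD40 ligand of helper T cells and in turn raises Cd80 and Cd86. Cd274 and Pdcd1lg2 bind PD-1 and restrain T cells that have already been activated, and interferon-γ is the classical inducer of Cd274 in leukocytes, endothelium and stroma. Lgals9 binds sugars on TIM-3 and other receptors, and Vsir is a checkpoint protein found mainly on myeloid cells. In inflamed joints these molecules stand between the infiltrating lymphocytes and the cells they meet.

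In the mouse genome (GRCm38) the genes lay on 5 chromosomes. Cd274 (chromosome 19, 29367455 to 29388095, plus strand) and Pdcd1lg2 (chromosome 19, 29410919 to 29471161, plus strand) were neighbours, 22823 bp apart. Cd86 (chromosome 16, 36603869 to 36666081, minus strand) and Cd80 (chromosome 16, 38455561 to 38496335, plus strand) were 1789479 bp apart. Cd40 lay on chromosome 2 from 165055627 to 165072948 (plus strand), Lgals9 on chromosome 11 from 78962974 to 78984946 (minus strand) and Vsir on chromosome 10 from 60346851 to 60372684 (plus strand). RefSeq promoter sequences of 300 bases (250 before and 50 after the start, GRCm38.p6) were at hand for 5 of the 7 genes, Cd274, Pdcd1lg2, Cd80, Lgals9 and Vsir. They were searched on both strands for the interferon-γ-activated site TTCNNNGAA, the interferon-stimulated response element (GAAA, any 2 bases, GAAA) and the NF-kB motif. Among all 32534 promoters of that table these were found in 8.33%, 3.45% and 4.53%. Shown are the 3 promoters that bear on the PD-1 ligands and on the gene with most matches, each 5′ to 3′ on the gene's strand. Capitals mark a match: the interferon-stimulated response element in Lgals9 (chr11:78984875-78985174, minus strand) and the NF-kB motif in Pdcd1lg2 (chr19:29410669-29410968, plus strand). Cd274 (chr19:29367188-29367487, plus strand) had none of the 3 in this window.
Lgals9: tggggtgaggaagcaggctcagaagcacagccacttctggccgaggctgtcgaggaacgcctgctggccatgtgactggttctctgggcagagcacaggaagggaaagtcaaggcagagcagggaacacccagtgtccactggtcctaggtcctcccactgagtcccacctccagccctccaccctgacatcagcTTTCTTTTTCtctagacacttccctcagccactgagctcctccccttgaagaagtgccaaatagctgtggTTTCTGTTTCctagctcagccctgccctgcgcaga
Pdcd1lg2: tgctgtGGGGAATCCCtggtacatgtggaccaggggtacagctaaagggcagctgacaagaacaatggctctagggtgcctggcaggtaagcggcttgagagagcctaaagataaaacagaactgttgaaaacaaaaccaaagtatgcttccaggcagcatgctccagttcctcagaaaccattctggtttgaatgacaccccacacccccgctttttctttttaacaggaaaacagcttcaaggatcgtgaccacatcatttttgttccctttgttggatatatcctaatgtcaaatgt
Cd274: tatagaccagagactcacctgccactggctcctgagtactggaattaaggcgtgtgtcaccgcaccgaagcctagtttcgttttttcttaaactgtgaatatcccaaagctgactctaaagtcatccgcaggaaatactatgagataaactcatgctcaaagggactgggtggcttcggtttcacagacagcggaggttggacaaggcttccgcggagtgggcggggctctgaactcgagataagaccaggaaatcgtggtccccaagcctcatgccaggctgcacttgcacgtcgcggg
The first match in Lgals9 began 55 bases before the start and the second 15 bases after it. The single match in Pdcd1lg2 began 244 bases before the start. A match describes letters only, and no match in Cd274, Cd80 or Vsir says no more than that these letters were not in the window.

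Of 7671 PBS barcodes 2667 were kept as cells, and of 5709 CFA barcodes 4014, by the limits of at least 500 genes, at most 10% mitochondrial and at most 1% hemoglobin reads. The hemoglobin limit removed most of the PBS barcodes (4554 were above it, against 779 in CFA), and hemoglobin took 20.7% of all PBS molecules and 7.90% of CFA molecules. A molecule is counted by its unique molecular identifier (UMI), and the kept cells had a median of 7022 UMIs in PBS and 6509.5 in CFA. Cells were sorted into classes by their markers, written as "-like" since the names rest on RNA alone. Endothelial-like (694 PBS and 944 CFA cells), fibroblast-like (501 and 377) and Schwann-like cells (307 and 377) were well filled in both libraries. Myeloid cells were not: the PBS library held 40 neutrophil-like, 20 macrophage-like and 17 monocyte-like cells, against 275, 322 and 66 in CFA. A further class of macrophage-like cells with genes of the osteoclast lineage (Spp1, Dcstamp, Atp6v0d2) had 264 cells in CFA and none in PBS. No subcluster was named conventional or migratory dendritic, and T- or NK-like cells numbered 9 and 43. The libraries shared 10 barcode sequences.

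Over all cells, 5 of the 7 genes were at least 2-fold higher in the CFA library, where 9.56% of the 18099 genes tested were. A gene entered this count where it had at least 20 UMIs over both libraries. Levels are given as CPM, the gene's UMIs per 1000000 UMIs of all genes in the same cells. Cd86 went from 20.1 to 226 CPM (ratio 11.2, interval 10.3 to 12.2), Cd80 from 6.73 to 64.8 (9.63, 8.29 to 11.2) and Cd274 from 25.7 to 207 (8.07, 7.47 to 8.73). Pdcd1lg2 went from 0.662 to 5.33 (8.06, 4.99 to 13.8) and Cd40 from 5.59 to 14.2 (2.53, 2.12 to 3.04). The other 2 stayed between the limits: Vsir went from 41.2 to 58.9 (1.43, 1.33 to 1.53) and Lgals9 from 102 to 87.7 (0.858, 0.817 to 0.901). The median gene was itself 0.20 lower in CFA on the log2 scale, so each ratio stands slightly higher relative to it. These totals mix the level within a cell class with the number of cells in it. With the neutrophil-, monocyte- and macrophage-like cells left out, Cd274 went from 24.0 to 101 (ratio 4.20, 3.85 to 4.59), Cd86 kept a ratio of 8.47 (7.0 to 10.3), Cd80 of 3.75 (2.87 to 4.95) and Pdcd1lg2 of 2.69 (1.46 to 5.22). Without those cells Cd40 had a ratio of 1.09 (0.858 to 1.39), Vsir of 0.911 (0.832 to 0.998) and Lgals9 of 0.901 (0.853 to 0.952).

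The distribution of the UMIs over the cell classes differed as well. Such a share follows the number of cells kept in a class as well as the level in them. Monocyte- and macrophage-like cells were 37 of the PBS cells (1.39%) and 652 of the CFA cells (16.2%), after the bead step and the hemoglobin limit. In the PBS library 61.9% of the Cd274 UMIs lay in endothelial-like cells and 7.30% in monocyte- and macrophage-like cells, against 20.04% and 56.3% in CFA. Cd40 moved the same way, from 57.9% endothelial-like to 73.0% monocyte- and macrophage-like, and Vsir went from 41.8% endothelial-like and 24.8% fibroblast-like to 48.5% monocyte- and macrophage-like. Cd86 lay mostly in monocyte- and macrophage-like cells in both (76.5% and 84.9%). The monocyte- and macrophage-like share of Cd80 went from 35.5% to 75.0%, and its fibroblast-like share from 20.2% to 3.30%. Lgals9 was spread widely, with endothelial-like (39.1% and 29.1%), B-like (15.3% and 8.62%), fibroblast-like (13.7% and 11.99%) and erythrocyte-like cells (14.0% and 3.18%) all holding part of it. Of the 18 Pdcd1lg2 UMIs in the PBS library, 9 lay in progenitor-like cells.

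**Figure D1:**
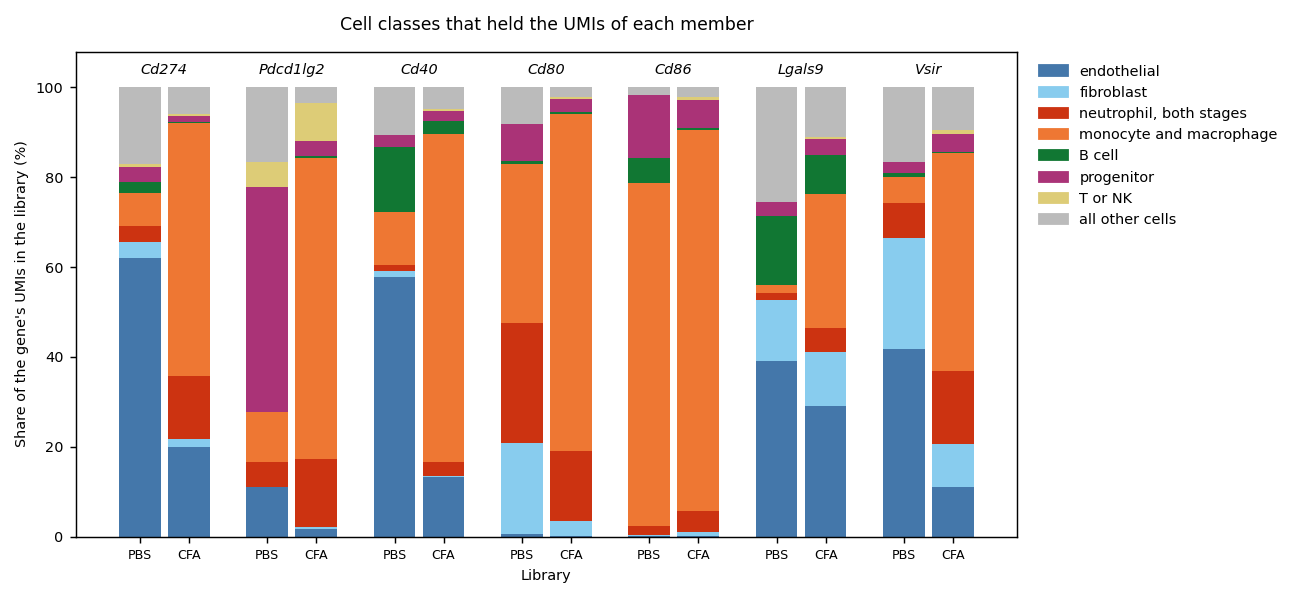
Share (in percent) of each gene's UMIs in a library that lay in each cell class, with the PBS and CFA libraries side by side. The endothelial share of Cd274 is 61.9% in PBS and 20.04% in CFA, and the monocyte and macrophage share of Cd86 is the largest in both libraries. Of Pdcd1lg2 the PBS library held only 18 UMIs.

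Cd274, the ligand of PD-1, was higher in CFA in the endothelial-like cells, neutrophil-like cells and most other classes. In endothelial-like cells, which line the vessels, it went from 75.5 CPM (interval 68.5 to 82.9, 433 UMIs) to 277 (265 to 290, 1847 UMIs), a ratio of 3.67 (3.30 to 4.09). The subtypes all moved the same way: capillary-like cells from 53.6 to 248 (ratio 4.63, 3.15 to 6.99), venular-like cells from 76.9 to 275 (3.57, 2.88 to 4.48) and arterial-like cells from 64.2 to 135 (2.10, 1.57 to 2.84). The intervals of the capillary- and venular-like ratios overlapped, while that of the arterial-like ratio ended below both. The remaining endothelial-like cells, which no subtype list named, had the highest endothelial level in CFA (354, from 83.5, ratio 4.24). In the 5 venular-like CFA cells with most Cd274 lay 253 of the 670 UMIs of that subtype, against 37 of 161 in the capillary-like cells. Part of the venular-like level thus rested on few cells, while 60.4% of the venular-like CFA cells held a Cd274 UMI, against 23.3% in PBS. The share of endothelial-like cells with a Cd274 UMI was 28.4% in PBS and 49.7% in CFA. With every cell thinned to 1000 UMIs, which takes away differences in depth, it was 6.20% (4.53 to 8.27) and 19.5% (17.0 to 22.2).

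RNA that floats free in a suspension can give UMIs to any cell and was not measured here. Schwann-like cells, the glia of peripheral nerves, are given for comparison. Their median depth was 3827 UMIs in PBS and 3433 in CFA, against 5673.5 and 4733.5 in endothelial-like cells. Cd274 was found in 0.977% of the Schwann-like cells in PBS and 8.22% in CFA, and in 0.334% and 4.12% after thinning. The endothelial-like share was above the Schwann-like share in both libraries. The Schwann-like level itself went from 3.27 to 49.2 CPM (5 and 90 UMIs, ratio 15.0, 6.22 to 47.5), with 44 of the 90 in 5 cells. Summed neutrophil markers went from 120 to 298 CPM in these cells (6 and 9 of 9 markers seen) and macrophage markers from 19.6 to 52.0 (6 and 7 of 9), and their part in the Cd274 values was not tested. In endothelial-like cells the neutrophil markers went from 98.5 to 222 and the macrophage markers from 107.6 to 116, with 8 of 9 macrophage markers seen in both.

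In neutrophil-like cells Cd274 went from 70.7 CPM (44.8 to 106) to 701 (662 to 741), a ratio of 9.91 (6.57 to 15.7). The PBS value rested on 23 UMIs in 3 of 40 cells. In CFA it was 1239 UMIs in 161 of 275 cells. Thinned shares were 5.0% (0.611 to 16.9) and 37.8% (32.0 to 43.9). The immature neutrophil-like cells, which carry granule genes such as Ngp, Camp and Fcnb, were far lower in CFA, at 49.5 (37.5 to 64.2), with 1 UMI in PBS. The subclusters were filled unevenly by the libraries. One, led by Il1f9, Csf1, Acod1, Isg15 and Cxcl10, held 129 CFA cells and 5 PBS cells, and in CFA it had 2489 CPM of Cd274 (2335 to 2650), in 79.8% of its cells. In PBS its 5 cells held 18 UMIs, 630 CPM (373 to 995). The subcluster led by Retnlg and Cxcr2 (12 PBS and 58 CFA cells) went from 71.0 to 346. The subcluster with Ly6g, Ltf and Lcn2 (23 and 88 cells) had 0 UMIs in PBS, with an exact Poisson upper limit of 16.3 CPM, and 142 in CFA. Over the subclusters of either stage with at least 10 cells in each library, 55 PBS and 197 CFA cells in all, the ratio was 13.8 (6.25 to 37.8), against 12.7 (8.52 to 19.96) over all neutrophil-like cells of both stages. Without the subcluster that the CFA library dominated the ratio was thus about as large, but both levels were lower. The CFA level was 125 CPM against 444, and the PBS level 9.09 (6 UMIs) against 34.8 (24 UMIs).

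Macrophage-like cells had 155 CPM of Cd274 in PBS (112 to 209) and 411 in CFA (392 to 430), a ratio of 2.64 (1.96 to 3.67). In PBS, 26 of the 43 UMIs came from 1 of the 20 cells, and the ratio moved between 1.52 and 22.8 with the way the cells were classed, averaged or thinned. Summed neutrophil markers in these cells went the other way, from 20052 to 5317 CPM with 9 of 9 seen in both, and their part was not tested. Monocyte-like cells went from 36.3 to 187 (5.15, 2.55 to 12.1). The macrophages with osteoclast-lineage genes, found in CFA alone, had 351 (338 to 363), in 93.9% of cells at their median depth of 31830 UMIs and in 25.8% after thinning. Among CFA classes of at least 30 cells, with the endothelial-like cells pooled, the order was neutrophil-like, macrophage-like, the Spp1 macrophages and endothelial-like cells, whose intervals did not overlap. The endothelial-like cells outside the named subtypes, at 354 (331 to 379), overlapped the Spp1 macrophages. The thinned shares of the macrophage-like cells (24.2%, 19.6 to 29.3) and Spp1 macrophages (25.8%, 20.6 to 31.5) overlapped.

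Outside blood and vessel cells, Cd274 stood out in satellite-like cells, the stem cells of muscle. They had 1 UMI in 56 PBS cells and 102 UMIs in 87 CFA cells, 2.63 against 170 CPM (ratio 64.5, 11.3 to 2571). The UMIs came from 16 cells, and 85 of them from 5. After thinning, 10.5% of the CFA cells (4.90 to 18.9) held a UMI, against 4.12% of the Schwann-like cells (2.32 to 6.71), and the intervals overlapped. The neutrophil markers in satellite-like cells went from 111 to 344 CPM (4 and 9 of 9 seen) and the macrophage markers from 21.0 to 58.2 (3 and 6 of 9), and their part was not tested. Fibroblast-like cells went from 4.45 to 28.8 (ratio 6.48, 4.26 to 10.2), mural-like cells, the smooth muscle cells and pericytes around vessels, from 12.3 to 35.8 (2.91, 1.83 to 4.81) and osteoblast- or osteocyte-like cells from 3.02 to 29.0 (9.59, 3.10 to 48.1). Thinned shares in these 3 classes in CFA were 1.91%, 1.83% and 3.57%, against the Schwann-like 4.12% (2.32 to 6.71). The intervals overlapped, so no order is given, and the part of free RNA was not tested. Other cells' markers moved with them: neutrophil markers in mural-like cells went from 75.4 to 2142 CPM (6 and 9 of 9 seen), and monocyte markers went from 384 to 932 in fibroblast-like cells (7 and 8 of 8) and from 332 to 1205 in osteoblast- or osteocyte-like cells (6 and 8 of 8). Their part was not tested. In progenitor-like cells Cd274 went from 27.2 to 58.5 (2.15, 1.38 to 3.49), and 1 cell held 69 of the 117 CFA UMIs. Chondrocyte-like cells had 1 and 29 UMIs, 28 of the latter in 5 cells. In tenocyte-like cells (7.66 and 8.89, ratio 1.16, 0.501 to 2.62) and early B-like cells (11.2 and 11.4) no difference could be seen at this depth. Tenocyte-like cells held more neutrophil markers in CFA (59.3 to 3113 CPM, 5 and 9 of 9 seen), and their part in the Cd274 values was not tested. No thinned tenocyte-like cell of either library held a Cd274 UMI, but with 16 and 12 UMIs before thinning few could be left.

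**Figure D2:**
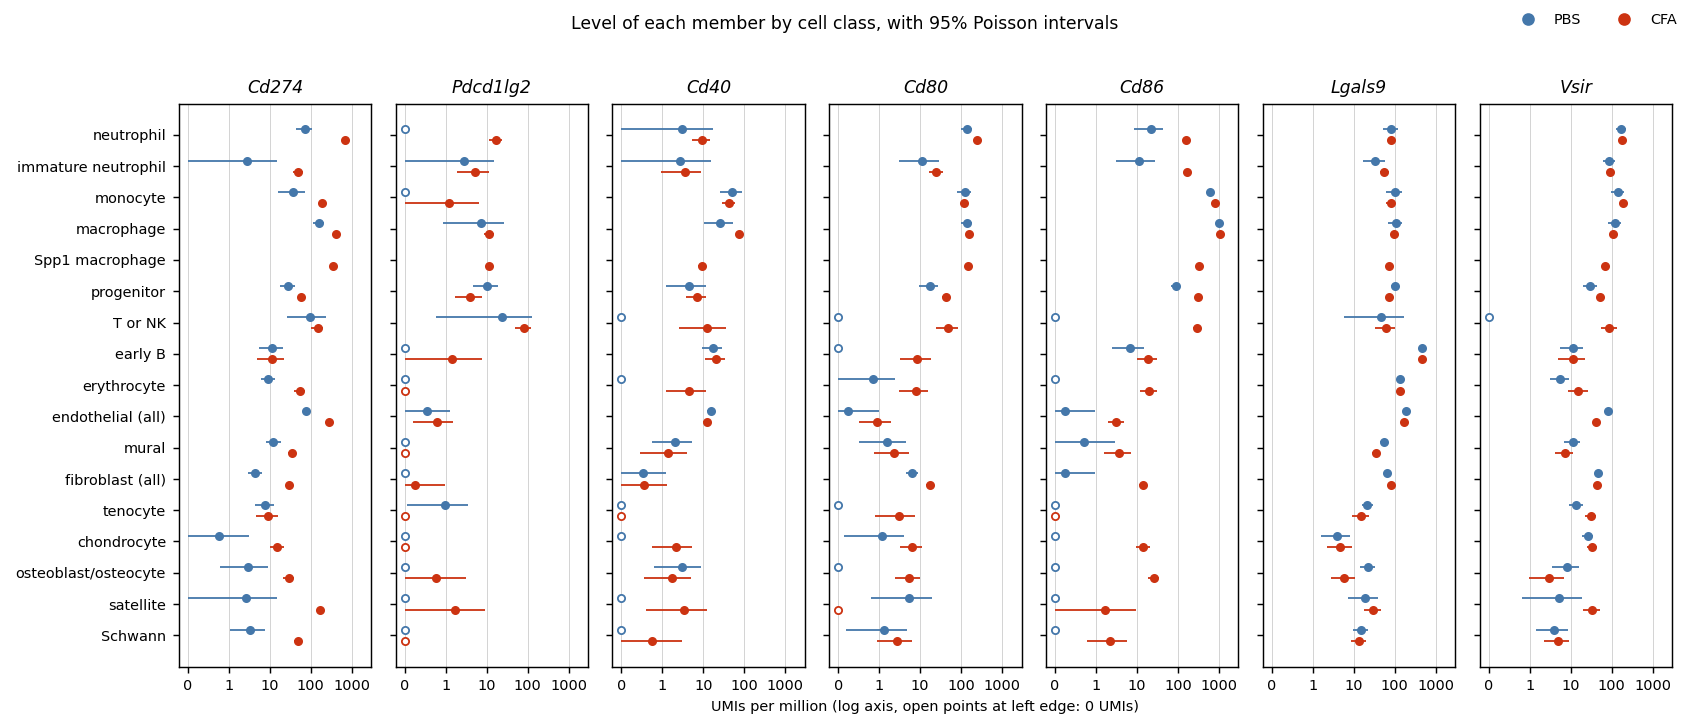
CPM of each gene (log axis) in 17 cell classes, PBS in blue and CFA in red, with exact Poisson 95% intervals. Open points at the left edge are classes with 0 UMIs, and interval ends below the axis are cut there. Cd274 lies to the right in CFA in the neutrophil, macrophage, endothelial and satellite classes, while Cd86 differs little in macrophages (1029 and 1077) and Lgals9 little in early B cells (467 and 468).

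Pdcd1lg2, the other PD-1 ligand, was rare. The CFA library held 237 UMIs in 142 of 4014 cells and the PBS library 18 in 16 of 2667. In CFA, T- or NK-like cells had the highest level (80.03 CPM, 48.9 to 124, 20 UMIs in 10 of 43 cells), against 1 UMI in 9 PBS cells, and 1 of the CFA cells kept a UMI after thinning. Neutrophil-like cells (17.0, 11.4 to 24.2), Spp1 macrophages (11.7, 9.56 to 14.1) and macrophage-like cells (11.5, 8.60 to 15.1) followed with intervals that overlapped. Neutrophil-like cells had 0 UMIs in PBS and 30 in CFA, at least 1.84-fold higher when the PBS count is set to the floor of 3 UMIs. Macrophage-like cells had 2 and 52 UMIs (ratio 1.59, 0.420 to 13.5). In progenitor-like cells the levels were 10.2 and 4.00 (9 and 8 UMIs, ratio 0.393, 0.132 to 1.15). Endothelial-like cells held 2 UMIs in PBS and 4 in CFA and Schwann-like cells none in either, so Cd274 and its chromosomal neighbour differed in which cells held them. A count of 0 in 377 Schwann-like CFA cells allows a share of cells with a UMI of up to 0.796% (3 counts of the total), which is no limit on the cells that express the gene.

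Cd86, which binds CD28 and CTLA-4, marked monocyte- and macrophage-like cells. Macrophage-like cells had 1029 CPM in PBS (913 to 1156) and 1077 in CFA (1047 to 1107), a ratio of 1.05 (0.928 to 1.18), and 19 of the 20 and 301 of the 322 cells held a UMI. At 1000 UMIs per cell the shares came to 55.0% (31.5 to 76.9) and 58.2% (52.5 to 63.7). The ratio stood on 20 PBS cells and ranged from 0.428 to 1.37 over the alternatives. The 12 dendritic cell markers summed to 368 CPM in the PBS macrophage-like cells and 189 in CFA. In PBS 10 of 12 were seen (Xcr1 and Fscn1 at 0), and in CFA 12 of 12. Flt3 was at 50.6 and 2.44, Cd209a at 50.6 and 1.55 and Siglech at 61.4 and 3.98. Wdfy4, Zbtb46 and Ccr7 were also lower in CFA. Itgax went the other way, at 3.61 and 65.1 (1 and 294 UMIs). Clec9a, Xcr1, Ccl22, H2-DMb2 and Fscn1 were also higher in CFA, with at most 2 PBS UMIs each. The part of these dendritic cell markers in the Cd86, Cd80 and Cd40 values of this class was not tested. Monocyte-like cells went from 608 to 787 (1.29, 1.07 to 1.57). The Spp1 macrophages, at 330 (319 to 343), had less than either, and 22.7% of them held a UMI after thinning. As 1 class, the 37 PBS and 652 CFA monocyte- and macrophage-like cells had 842 in PBS and 591 in CFA (ratio 0.701, 0.635 to 0.775), a class in which the median gene was 0.42 lower in CFA on the log2 scale. The level per class and the number of cells thus moved differently.

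Outside these cells Cd86 was higher in CFA in the granulocyte line. Neutrophil-like cells went from 21.5 (8.65 to 44.3, 7 UMIs in 2 cells) to 157 (139 to 176, 277 UMIs in 47 cells), a ratio of 7.28 (3.49 to 18.3), and 150 of the 277 lay in 5 cells. Immature neutrophil-like cells went from 11.0 to 169 (15.3, 5.89 to 56.8), with 150 of 194 UMIs in 5 of 51 cells. Macrophage markers in neutrophil-like cells were at 298 in PBS and 528 in CFA (9 of 9 seen in both), in immature neutrophil-like cells at 8.25 and 769 (1 and 9 of 9 seen), and their part was not tested. Progenitor-like cells, which carry Prtn3, Mpo and Elane or Meis1 and Angpt1, went from 87.1 to 315 (3.61, 2.85 to 4.64), and 9.52% and 21.6% of them held a UMI after thinning, with overlapping intervals. Their monocyte markers went from 4264 to 7545 (8 of 8 seen in both), and their part was not tested. T- or NK-like cells had 0 UMIs in PBS and 73 in CFA, of which 71 lay in 5 cells and 40 in 1. In the T- or NK-like CFA cells the summed neutrophil markers were at 11284 (9 of 9 seen), against 142 in PBS (2 of 9), and their part was not tested. In fibroblast-like cells 1 UMI stood against 78 (0.171 and 13.9), and 1 cell held 45 of them. Endothelial-like cells (0.174 and 3.15) and Schwann-like cells (0 and 4 UMIs) were low in both libraries. After thinning, 0.318% of the endothelial-like (0.0657 to 0.927) and 0.275% of the Schwann-like CFA cells (0.00696 to 1.52) held a UMI, and the intervals overlapped.

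Cd80, the second CD28 and CTLA-4 ligand, was found in neutrophil-, macrophage- and monocyte-like cells. Neutrophil-like cells went from 138 (101 to 185) to 239 CPM (216 to 263), a ratio of 1.73 (1.27 to 2.40), and had the highest Cd80 level of the CFA classes, with an interval above that of macrophage-like cells. Within them, the subcluster led by Il1f9 and Acod1 had 576 in CFA (504 to 657), the one led by Retnlg and Cxcr2 went from 341 to 260, and the one with Ly6g and Ltf from 61.9 to 107. With the immature cells added, the ratio was 2.17 (1.61 to 2.97) over all neutrophil-like cells and 1.39 (0.994 to 1.98) over the subclusters of either stage with at least 10 cells in each library. Macrophage-like (137 and 159, ratio 1.16, 0.838 to 1.66) and monocyte-like cells (122 and 120, 0.982, 0.637 to 1.56) differed by less than counting error, and the Spp1 macrophages stood at 148 (140 to 156). The macrophage-like ratio ranged from 0.423 without integration to 1.38 scaled by the median gene. Fibroblast-like cells went from 6.33 to 16.9 (2.67, 1.81 to 4.02), with 59 of the 95 CFA UMIs in 5 cells. Monocyte markers in these cells went from 384 to 932 CPM, and their part was not tested. Lining fibroblast-like cells, which make the lubricant Prg4, had 32.4 (19.2 to 51.2) in PBS in 9 of 31 cells, none of which kept a UMI after thinning. Endothelial-like cells held under 1 CPM of Cd80 in either library.

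Cd40, the receptor of CD40 ligand, lay in monocytes, macrophages, B cells and endothelium. Macrophage-like cells went from 25.3 (10.2 to 52.1, 7 UMIs) to 74.8 (67.1 to 83.2, 338 UMIs), a ratio of 2.96 (1.42 to 7.42). With a coarser clustering the ratio was 1.07, and with the 7 genes allowed to shape the clusters it was 1.24. The Spp1 macrophages had 9.48 (7.58 to 11.7), the lowest of the monocyte and macrophage classes. Monocyte-like cells were not higher in CFA, at 49.9 and 41.7 (11 and 35 UMIs, ratio 0.835, 0.414 to 1.82). As 1 class, with the Spp1 macrophages included, the monocyte- and macrophage-like cells had 36.2 in PBS and 31.8 in CFA. That ratio was 0.879, with an interval that included 1, so the higher level was seen in the macrophage-like class only. Later B-like cells (63.9 and 62.9, 7 and 4 UMIs) and early B-like cells (16.8 and 19.9) differed by less than counting error. Endothelial-like cells had 15.3 (12.3 to 18.9) in PBS and 12.5 (9.92 to 15.4) in CFA, a ratio of 0.812 (0.594 to 1.11). Schwann-like cells had 0 and 1 UMI.

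Lgals9 was found in many cell classes, and some were higher and others lower in CFA. Early B-like cells, which carry Vpreb1, Igll1 and Dntt, had the highest level in both, 467 (423 to 514) and 468 CPM (419 to 521), a ratio of 1.003 (0.865 to 1.16). After thinning, 31.2% and 36.8% of them held a UMI. Endothelial-like cells went from 189 (178 to 201) to 170 (160 to 180), a ratio of 0.897 (0.825 to 0.976), with arterial-like cells highest among the subtypes (243 and 205) and venular-like cells the one subtype that was higher in CFA (144 and 177, ratio 1.23, 1.03 to 1.47). The thinned endothelial-like share was 17.2% (14.4 to 20.2) and 16.5% (14.2 to 19.1), which overlap. Fibroblast-like cells went from 65.4 to 83.1 (1.27, 1.11 to 1.46), mural-like cells from 54.4 to 34.5 (0.635, 0.467 to 0.859) and progenitor-like cells from 101 to 71.5 (0.710, 0.541 to 0.935). Osteoblast- or osteocyte-like cells had 22.2 and 5.80 (22 and 10 UMIs, ratio 0.262, 0.111 to 0.576). Neutrophil-like (79.9 and 81.4), macrophage-like (105 and 95.6) and erythrocyte-like cells (134 and 137) did not differ beyond counting error, and the macrophage-like ratio of 0.913 ranged from 0.773 to 2.70 over the alternatives. Schwann-like cells had 15.1 and 13.1, and their thinned share was 0.669% and 0.824%.

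Vsir went in opposite directions in different cells. In endothelial-like cells it went from 81.8 (74.5 to 89.5) to 42.9 CPM (38.1 to 48.2), a ratio of 0.525 (0.451 to 0.609), just short of the 2-fold limit. All 4 endothelial-like groups were lower, with ratios of 0.526 (0.318 to 0.853) in capillary-, 0.543 (0.363 to 0.803) in arterial-, 0.704 (0.495 to 1.006) in venular-like and 0.548 (0.444 to 0.675) in the other cells. The thinned share was 8.51% (6.54 to 10.8) in PBS and 4.67% (3.41 to 6.21) in CFA. Cd274 and Vsir thus moved in opposite directions in the same endothelial-like cells. Neutrophil- and monocyte-like cells had the highest levels, and neither these nor macrophage-like cells differed beyond counting error: neutrophil-like cells 169 and 180 (ratio 1.07, 0.799 to 1.45), monocyte-like cells 141 and 186 (1.32, 0.894 to 2.01) and macrophage-like cells 119 and 110 (0.921, 0.647 to 1.35). The Spp1 macrophages had 68.0 (62.7 to 73.6). Fibroblast-like cells stood at 47.6 and 44.8 (0.943, 0.792 to 1.12). Satellite-like cells went from 2 to 20 UMIs (5.26 and 33.3, ratio 6.32, 1.54 to 55.8) and tenocyte-like cells from 13.9 to 31.8 (2.29, 1.40 to 3.81). After thinning, 2.61% and 7.27% of the tenocyte-like cells held a UMI, with overlapping intervals. The part of the neutrophil markers in tenocyte-like cells, 59.3 and 3113 CPM, was not tested. Schwann-like cells had 6 and 9 UMIs.

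**Figure D3:**
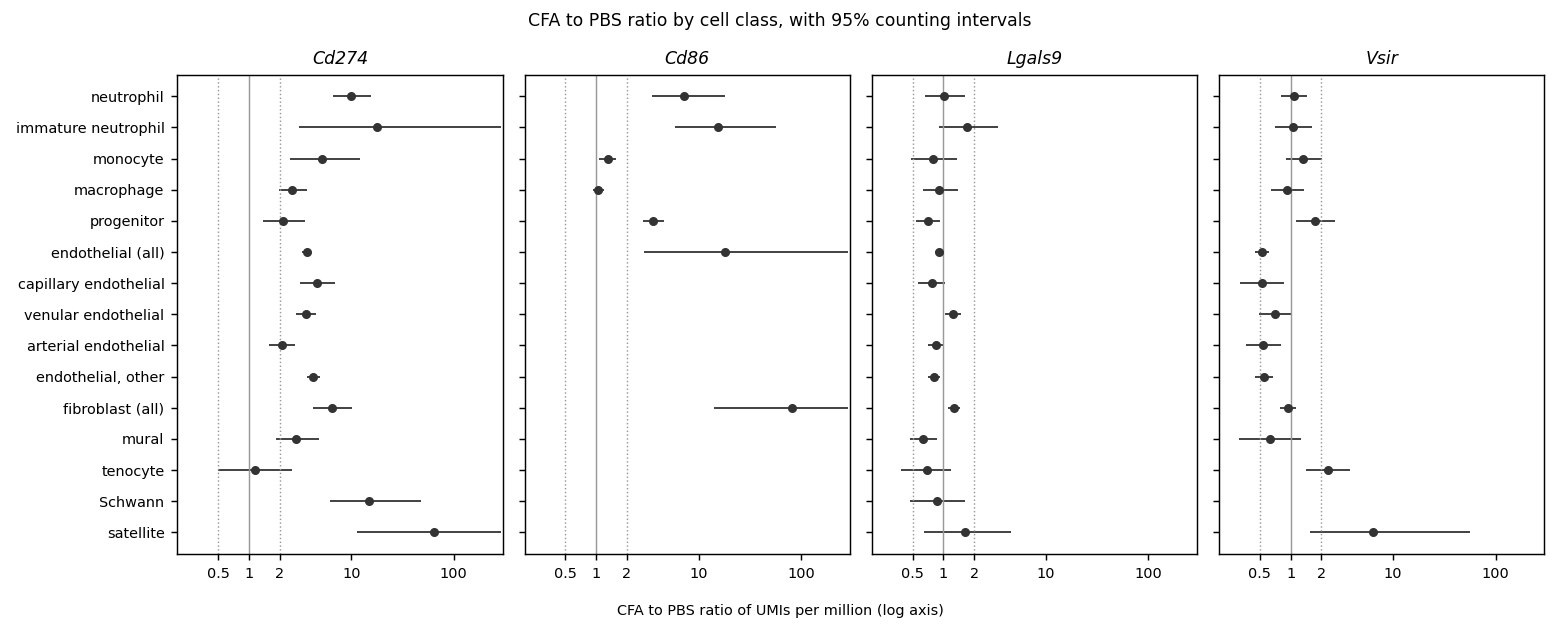
CFA to PBS ratio of CPM (log axis) for Cd274, Cd86, Lgals9 and Vsir in 15 cell classes, with 95% counting intervals. The solid line is a ratio of 1 and the dotted lines are 0.5 and 2. Intervals past the right edge are cut there, and classes with under 20 UMIs are not drawn. Cd274 lies above 1 in all drawn classes, with the interval of tenocytes reaching below it, while the endothelial ratios of Vsir lie below 1.

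Counted by class, 2 of the 5 genes tested in endothelial-like cells (Cd274 and Cd86) were at least 2-fold higher in CFA, where 5.06% of the 12618 genes tested were that much higher and 5.88% at most 0.5-fold. In fibroblast-like cells it was 3 of 5 (Cd274, Cd80 and Cd86), with 7.2% of all genes higher and 5.62% lower. Neutrophil-like cells had 2 of 6 (Cd274 and Cd86), with 12.1% and 11.9%, and macrophage-like cells 2 of 7 (Cd274 and Cd40), with 10.3% and 14.7%, the median macrophage-like gene being 0.24 lower on the log2 scale. Progenitor-like cells had 3 of 5 (Cd274, Cd80 and Cd86), with 6.94% and 5.52%. In satellite-like cells 2 of 3 were called (Cd274 and Vsir), with 8.21% and 7.04%, and in Schwann-like cells Cd274 alone of 2, with 7.9% and 3.02%. None of the genes with at least 20 UMIs was at most 0.5-fold in these classes or over all cells, where 10.4% of genes were. Lgals9 was at most 0.5-fold in osteoblast- or osteocyte-like cells, where 6.24% of genes were, and Cd274 and Cd86 were at least 2-fold higher there, as 8.23% of genes were.

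**Figure D4:**
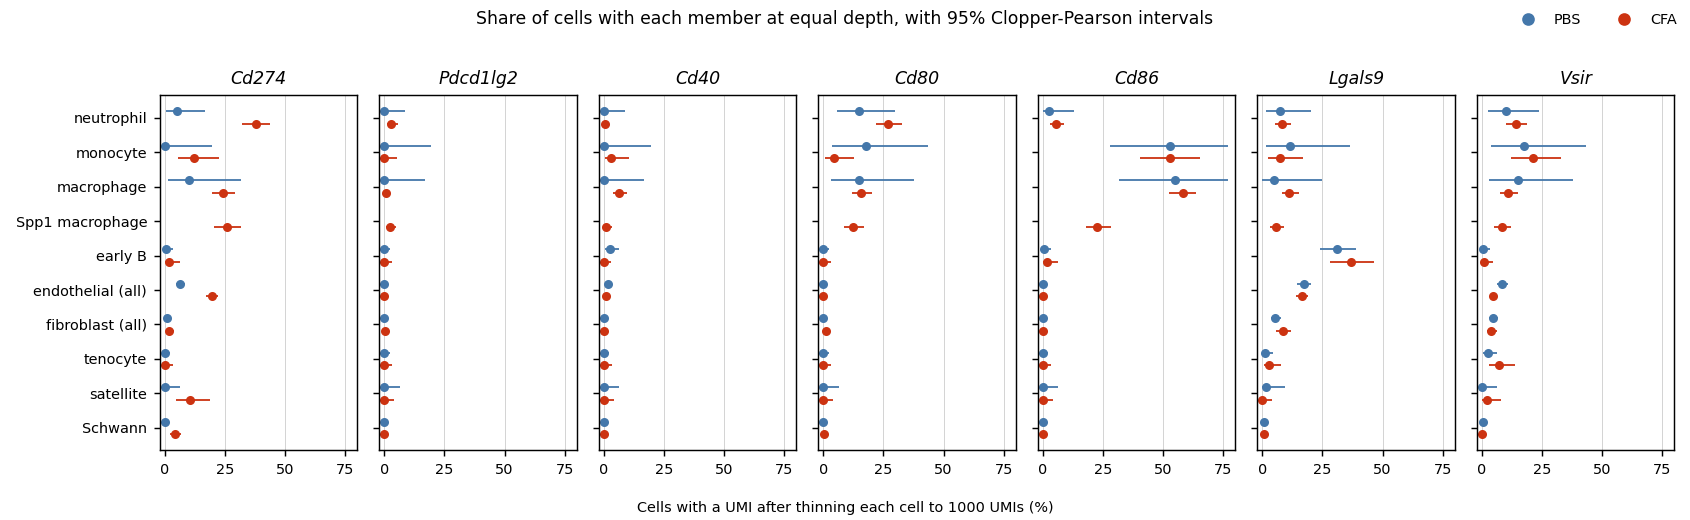
Percent of cells with a UMI of each gene after every cell was thinned to 1000 UMIs, with exact Clopper-Pearson 95% intervals, PBS in blue and CFA in red, in 10 cell classes. The Spp1 macrophages have no PBS cells. Cd274 lies at 37.8% of CFA neutrophils and 19.5% of CFA endothelial cells, and at 4.12% of CFA Schwann cells.

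The genes also met in single cells. In CFA macrophage-like cells, 216 of the 227 cells with Cd274 also held Cd86 (95.2%), 192 of the 196 with Cd80 held Cd86 (98.0%), and 125 of the 130 with Cd40 did (96.2%), where 93.5% of all 322 cells held Cd86. Among the 264 Spp1 macrophages 230 held both Cd274 and Cd86, where 93.9% of all 264 held Cd274 and 91.3% held Cd86. Of those macrophages 86.4% held UMIs of at least 4 of the 7 genes. In CFA neutrophil-like cells 109 cells held both Cd274 and Cd80. That was 67.7% of the 161 with Cd274 and 67.3% of the 162 with Cd80, and Cd80 was found in 46.5% of the cells without Cd274. Cd86 was found in 21.7% of the neutrophil-like cells with Cd274 and 10.5% of those without. In endothelial-like cells Cd274 and Lgals9 were found together in 255 CFA cells (54.4% of those with Cd274) and 150 PBS cells (76.1%). Among endothelial-like cells lacking a Cd274 UMI, 48.2% in the CFA library and 60.4% in the PBS library held Lgals9. The Lgals9 share was thus lower in CFA both with and without Cd274. Deeper cells hold more genes of any kind, and these pairs were not corrected for depth.

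The receptors that read these ligands were looked for in the 9 PBS and 43 CFA T- or NK-like cells. PD-1 (Pdcd1) had 21 UMIs in 12 CFA cells and none in PBS, Ctla4 had 156 in 27 CFA cells and none in PBS, and Cd28 had 68 in 15 CFA cells and 6 in 2 PBS cells. The CD40 ligand gene Cd40lg had 21 UMIs in 10 CFA cells and none among all 2667 PBS cells, and Icos had 174 in 28 CFA cells and 36 in 3 PBS cells. Havcr2 (TIM-3), a receptor of galectin-9, had 15 UMIs in 7 of these cells in CFA, a small part of its 1085 UMIs in that library. With 9 PBS cells, 0 UMIs of a receptor does not show that it was lower.

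Related genes were counted as lists. Of 19 signalling genes and regulators tested in endothelial-like cells 3 were at least 2-fold higher in CFA and none at most 0.5-fold, with a median ratio of 1.001 against 1.001 over all genes tested. They included Ciita, the master regulator of MHC class II (1.22 to 17.3 CPM, ratio 14.1, 6.65 to 36.0), and Traf1 (5.23 to 13.2, 2.52, 1.65 to 3.96). Irf1, an interferon-induced factor that acts on Cd274, stood at 766 and 575 there (ratio 0.750, 0.718 to 0.783). In neutrophil-like cells 7 of 17 were higher and none lower, with a median ratio of 1.59 against 0.986 over all genes. Traf1 (21.5 to 127, 5.91, 2.82 to 14.9) and Irf1 (120 to 508, 4.24, 3.07 to 6.00) led. In macrophage-like cells 1 of 19 was higher, with a median of 1.18 against 0.881. In fibroblast-like cells 3 of 19 were higher, among them Ciita (0.513 to 4.98, 9.70, 3.00 to 49.9), with a median of 0.993 against 0.990. In satellite-like cells 2 of 14 were, with a median of 1.09 against 0.961. The part of other cells' RNA in the endothelial- and fibroblast-like values was not tested.

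Among the other ligands, 3 of 10 tested in endothelial-like cells were higher and 1 lower (median 1.09). Lgals3 (galectin-3, ratio 4.68, 3.20 to 7.05), Sirpa, the receptor of the "don't eat me" ligand CD47 (2.38, 1.68 to 3.41), and the B7 family member Cd276 (2.02, 1.29 to 3.23) were the higher ones, and Lgals1 (galectin-1) was lower (131 to 43.7, 0.333, 0.289 to 0.381). Neutrophil and macrophage markers were also seen in endothelial-like cells, and their part in these values was not tested. In macrophage-like cells 2 of 12 were higher, among them Lgals3 (668 to 1659, 2.48, 2.15 to 2.89), and 2 lower, Tnfsf9 (4-1BB ligand, 90.3 to 22.4, 0.248, 0.159 to 0.401) and Lgals1 (787 to 378, 0.481, 0.417 to 0.556). In neutrophil-like cells none of 7 was higher and Lgals1 was lower (138 to 40.7, 0.294, 0.20 to 0.437). Of the receptor and partner genes, 1 of 7 in endothelial-like cells was higher, Btla (1.05 to 4.65, 4.45, 1.83 to 13.04). The part of other cells' RNA in that value was not tested. In neutrophil-like cells 2 of 4 were, Havcr2 (0 to 46.4, at least 5.03-fold) and Cd44 (581 to 1247, 2.15, 1.85 to 2.50), and in macrophage-like cells Btla was lower (46.9 to 7.75, 0.165, 0.0852 to 0.340).

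Across the 38 points of class and library with at least 30 cells, the genes whose level followed each gene most closely were found among 15941 genes by Pearson's r on log2 levels. The points share libraries and depth, so r is a description. Cd274 was followed by Parp10 (0.910), Picalm (0.857) and N4bp1 (0.854), Cd86 by Ms4a6c (0.967), Cd83 (0.954) and Pld4 (0.952), and Cd80 by Tlr13 (0.946), Ccr1 (0.939) and Ptafr (0.936). Pdcd1lg2 was followed by Slc36a3os (0.926), Areg (0.910) and Trbc2 (0.896), and Cd40 by Uvrag (0.863), Cd38 (0.853) and Trim14 (0.827). Pdcd1lg2 was at 80.03 CPM at 1 point, the 43 T- or NK-like CFA cells (20 UMIs), and at most 17.0 at the others. The part of that point in its r values was not tested. The nearest to Lgals9 were Apobec3 (0.834), Mndal (0.809) and Ly6e (0.799), and to Vsir Mob1a (0.816), Rap1b (0.812) and Prr13 (0.812), with lower values than for Cd86 or Cd80.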

How the data were processed

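The deposited values were raw UMI counts per gene and barcode in 2 matrices, one for PBS and one for CFA, from the 10x 3′ protocol. The authors made these counts with Cell Ranger 7.0.1 on GRCm38 (mm10), as the submitters' processing notes name them, and the deposited matrices are not normalised. The annotation release is not given in the sources used here, and the study states more CFA cells than the 5709 barcodes analysed. The authors' clusters were not used here. Positions came from GENCODE vM21 and promoters from RefSeq.

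Barcodes with at least 500 genes, at most 10% mitochondrial and at most 1% hemoglobin UMIs were kept, which left 27201994 PBS and 44432717 CFA UMIs. Seurat 5.3.0 (sctransform 0.4.2, R 4.3.3) normalised each library with SCTransform, integrated them on 3000 genes and clustered on 200 principal components at resolution 1.5 as in the methods, with the 7 genes left out. Immune, endothelial and fibroblast cells were reclustered on 30 components (resolution 1 for immune, 0.5 for the others). A cluster took the class with most markers among its 10 leading genes, of those with at least 3 markers in 25% of its cells and 2-fold above other cells (10 CPM added). A cluster whose cells had a median UMI count under 0.333 of their own library's and no marker of the name among its leading genes stayed unnamed. This rule was revised after a first naming was seen. Python 3.11.15 (numpy 2.4.6, scipy 1.17.1, pandas 2.3.3) computed the rest, with seed 1, and matplotlib 3.10.9 drew the figures. Scrublet (scanpy 1.11.5) marked 21 PBS and 2 CFA cells, too few in CFA to have worked, so doublets were kept and the top 5% of scores removed as an alternative.

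UMIs were summed per class and library and scaled to CPM. Ratios carry exact conditional binomial, levels exact Poisson and shares exact Clopper-Pearson 95% intervals. These treat UMIs as independent molecules and cover counting error only. A gene was called at a 2-fold ratio with at least 20 UMIs over both libraries, and 0 UMIs in a class were set to a floor of 3 counts. The ratio and thinning steps were tested on simulated data. No p-value was computed, since each condition has 1 library. The 7 genes and the gene lists were chosen with earlier results of these data known. Related genes are the 3 highest and 3 lowest ratios of a list, and 19 of the 20 regulators were found, of which 1 is not reported here by name. The text gives classes of at least 30 cells in a library and, beyond these, small classes where a value bears on a result.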

Additional observations from a re-analysis of the deposited data

Results flagged for a closer look

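Lgals9 and Vsir moved in opposite directions in different cell classes, with intervals on either side of a ratio of 1. The difference between classes was not tested, as each condition has 1 library. For Lgals9 the CFA to PBS ratio was 1.27 in fibroblast-like cells, against 0.897 in endothelial-like, 0.710 in progenitor-like, 0.635 in mural-like and 0.262 in osteoblast- or osteocyte-like cells. For Vsir it was 0.525 in endothelial-like cells, against 1.72 in progenitor-like, 2.29 in tenocyte-like, 2.81 in erythrocyte-like and 6.32 in satellite-like cells. The erythrocyte-like cells had a median of 18430.5 UMIs in PBS and 2427 in CFA, the median gene there was 0.22 higher in CFA on the log2 scale, and 19.3% of genes were at least 2-fold higher.

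Barcodes outside the limits on genes, mitochondrial and hemoglobin UMIs, which entered no comparison, also held the members. In CFA (1695 barcodes) Cd274 was at 70.2 CPM, Cd86 at 56.4 and Cd80 at 23.8, against 8.65, 7.68 and 2.80 in the 5004 PBS barcodes outside the limits.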

How the results depend on the processing

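Of 293 CFA to PBS ratios recomputed under other settings 240 stayed within the counting interval and 53 moved, and none of the called ratios changed direction. A ratio from few UMIs has a wide interval and stays within it easily. Direction was followed only for ratios past the 2-fold limit. Uncalled ratios in macrophage-like cells crossed 1: Cd86 ranged from 0.428 to 1.37, Cd80 from 0.423 to 1.38 and Lgals9 from 0.773 to 2.70. Ranks of classes are not in these counts. The Cd274 ratio in endothelial-like cells stayed between 3.31 and 3.88 and that of Vsir between 0.513 and 0.624. Cd274 in satellite-like cells was between 44.8 and 86.3 where a ratio could be given. As reported it rested on 1 PBS UMI, with an interval of 11.3 to 2571, which this range does not narrow. Without the hemoglobin limit, ratios were 22.7 for Cd274, 4.66 for Cd80 and 2.02 for Vsir in neutrophils of both stages, 6.55 for Cd274 in macrophages, and over all cells 9.42 for Cd274 and 12.8 for Cd86. Macrophage-like values rest on 20 PBS cells and moved most. Cd274 there was 1.85 at resolution 0.8, 5.25 without integration, 22.8 with each cell classed on its own, 1.52 as a mean over cells, 4.22 without the top doublet scores and 1.82 after thinning. Cd86 there was 0.428, 0.632, 0.5997, 0.702 and 1.37 at resolution 0.8, without integration, by single cells, without top doublet scores and thinned, and 0.816 with 20% mitochondrial UMIs, 1.24 scaled by the median gene and 0.563 with the 7 genes kept for clustering. Cd40 there was 1.07 at resolution 0.8 and 1.24 with the genes kept. Cd274 in Schwann-like cells was 61.3 by single cells and 57.0 without top doublet scores. Over all cells Cd274 was 9.28 scaled by the median gene and 7.03 thinned, Cd86 was 12.9 scaled, 9.23 as a mean over cells and 12.7 without top doublet scores, and Cd80 was 7.87 as a mean. Thinning gave 2.17 for Cd274 and 1.61 for Lgals9 in fibroblasts, 3.05 for Cd80 in neutrophils, 0.472 for Cd40 in endothelium and 1.51 for Lgals9 in B cells. As a mean over cells Lgals9 in endothelium was 0.814 and Vsir 0.624. The cause of these shifts was not tested. After seeing the data, cells of the neutrophil, monocyte and macrophage classes were left out, which gave 4.20, 2.69, 3.75 and 8.47 for Cd274, Pdcd1lg2, Cd80 and Cd86 over all cells, and neutrophil subclusters under 10 cells in a library were left out, which gave 1.39 for Cd80. With each cell classed on its own, macrophages ranked 2 for Cd40 and monocytes 2 for Vsir, and monocytes ranked 3 for Vsir at resolution 0.8. At a 1.5-fold limit 4 members were called higher in neutrophils, where 21.8% of genes were, and at 3-fold 0 in macrophages, where 4.62% were.

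No paired analysis was possible because each condition has 1 library. Leaving out a replicate was not possible for the same reason. After thinning, Cd274 in satellite-like and Cd40 in macrophage-like PBS cells had 0 UMIs, so no ratio was given, and the rank of Pdcd1lg2 had no value at resolution 0.8. Depth limits the genes with few UMIs and the PBS myeloid classes.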

Other observations

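In the same barcodes outside the limits, Lgals9 was at 48.2 CPM in PBS and 28.3 in CFA, and Vsir at 19.0 and 18.8. Later B-like cells, of which there were 28 and 13, held Cd86 at 219 and 299 CPM in 3 and 2 cells. Plasmacytoid dendritic-like cells (14 and 22) held Cd86 at 83.1 and 313, with 42 of the 69 CFA UMIs in 1 cell. Lymphatic-like cells (18 and 12) held Vsir at 71.9 and 128 (ratio 1.78, 0.921 to 3.48).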
